A study of Mus musculus with 90 samples.

Results

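White adipose tissue was represented by 6 of the 90 libraries of the series, chosen by the tissue named in their labels, 3 of them taken at estrus and 3 at diestrus. All groups are female mice, C57BL/6 in the labels and C57BL/6J in the study's text, for which no treatment or genetic change is named, the series covers 15 tissues in both phases, and the phase was read from vaginal smears stained with methylene blue. The labels give an age of 10 weeks for every mouse, and the study's text gives a younger one. The labels name no fat depot, and they do not say which white and brown fat libraries share an animal. According to the study, replicates are different mice, and all tissues were taken from the same mice.

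White adipocytes store triglyceride and release fatty acids, and they secrete hormones such as leptin and adiponectin. Around them lie fibroblast-like progenitors, vessels with smooth muscle, and macrophages, so a bulk library mixes the RNA of all of these. Estrus follows the peak of estradiol, while diestrus is the phase of higher progesterone, and adipocytes and their progenitors carry the estrogen receptor Esr1. Ribosomes, which translate every mRNA, are built from a large and a small subunit, each a set of ribosomal proteins on an RNA core. The mRNAs of these proteins start with a stretch of pyrimidines, and growth signals through the kinase mTOR set how strongly they are translated.

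The deposited values are FPKM, a read abundance scaled to transcript length and library size, for 20414 genes. The filter on low values kept 11952 of them, whose average in white fat reached 1 FPKM, and these were tested as log2(FPKM + 1). Fold changes below are estrus minus diestrus on that scale, on which differences of weakly expressed genes come out too small. The adipocyte identity of all 6 libraries was clear, with Fabp4, the fatty acid carrier of adipocytes, between 13392 and 22295 FPKM, and Adipoq, which encodes adiponectin, between 2299 and 3382 FPKM. Markers of the kidney tubule summed to at most 1.26 FPKM and those of B cells to at most 12.0 FPKM. Genes of the subcutaneous and of the visceral depots were both present, with Hoxc10 at 28.7 to 32.7 FPKM and Gata6 at 8.78 to 13.2 FPKM, so the depot could not be named from these values.

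Estrus replicate 1 stood apart from the other 5 libraries. Over the tested genes, its log2 values correlated with theirs at a Pearson r of 0.928 to 0.960, while the others correlated among themselves at 0.978 to 0.989. Its summed FPKM of 26 smooth muscle markers was 5687, against 729 and 780 in the other estrus libraries and 453 to 597 in diestrus. The main results below are therefore also given without this library. In bulk tissue fewer cells of a type and less RNA per cell cannot be told apart.

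No gene was called between estrus and diestrus. With limma and Benjamini-Hochberg adjustment over all tested genes, 0 of 11952 genes (0%) reached a log2 fold change of at least 1 with an adjusted p of at most 0.05, and the lowest adjusted p was 0.791. Without estrus replicate 1 the lowest adjusted p was 0.0623 and the count was again 0. At an unadjusted p under 0.05 there were 577 genes higher in estrus (4.83% of those tested) and 137 lower. In size, 200 genes were higher and 15 lower by at least 1 on the log2 scale, and these counts were 56 and 15 without estrus replicate 1. What follows describes values and their overlap, and no single gene below passed the adjusted test of the phases.

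For 1106 genes (9.25%) all estrus values lay above all diestrus values, and for 328 genes (2.74%) all lay below. Thus 77.1% of the genes without overlap were higher in estrus. This imbalance depended on the scale of the libraries. It was 50.7% with FPKM rescaled to TPM (678 higher and 658 lower), 56.2% with upper quartile scaling (799 and 623) and 43.0% with quantile normalization (658 and 874). Without estrus replicate 1, where 2 libraries are set against 3, the shares of tested genes were 13.7% higher and 5.45% lower.

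The genes for cytosolic ribosomal proteins lay higher in estrus as a group. Of 84 such genes in the table, 80 passed the filter on low values. Of these 80, 75 were higher in every estrus library than in any diestrus library, while 0 were lower. The shares over all tested genes were 9.25% and 2.74%. Their median log2 fold change was 0.58, against 0.06 over all tested genes, and the median fold of the phase means was 1.51. An unadjusted limma p under 0.05 was found for 66 of the 80 genes. Summed over the 84 genes, FPKM in estrus were 48999, 34848 and 37998 in replicates 1 to 3, and in diestrus 27796, 25746 and 28293. The phases did not overlap, and even the lowest estrus sum lay above the highest diestrus sum. The means were 40615 ± 7430 in estrus and 27279 ± 1350 in diestrus (SD, n = 3 each).

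**Figure D1:**
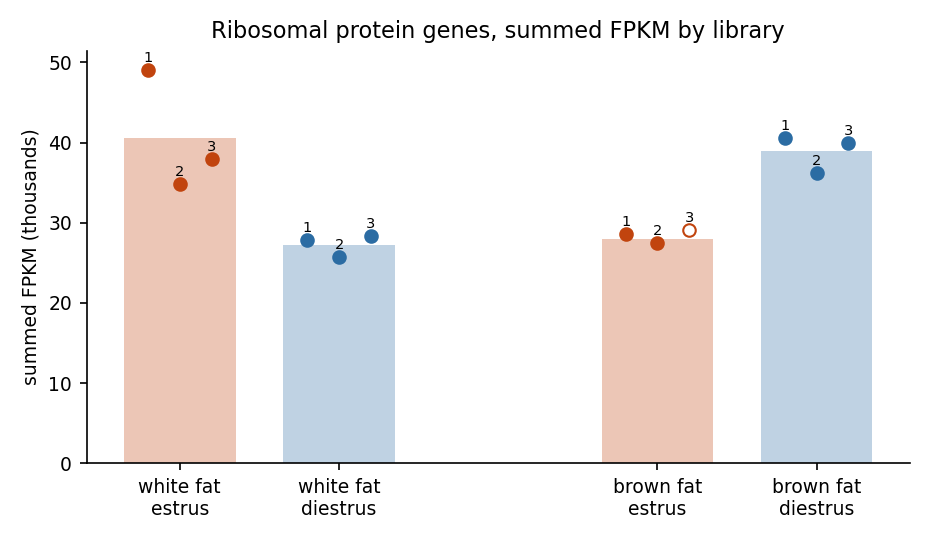
Summed FPKM (axis in units of 1000 FPKM) of the 84 ribosomal protein genes in each white and brown fat library. Points are libraries with their replicate number, bars are phase means, and the open point is brown fat estrus replicate 3, a shallow library left out of its mean. White fat estrus libraries lie above all white fat diestrus libraries, and the order of the phases is opposite in brown fat.

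The excess did not rest on estrus replicate 1, although that library was the highest of the 6 for 76 of the 80 genes. Without it the median log2 fold change was 0.41, against 0.04 over all tested genes, 76 of the 80 genes did not overlap and all 80 were above 0. The mean of the sums in estrus replicates 2 and 3 was 36423, which is 1.34 times that in diestrus. Rescaling never changed the direction of the group, and the size fell most with quantile normalization. The median was 0.52 with TPM (70 genes without overlap), 0.52 with upper quartile scaling (75 genes) and 0.41 with quantile normalization (54 genes). Leaving out any single library gave medians between 0.41 and 0.69.

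Genes for proteins of both subunits took part. Of 45 large-subunit genes 41 did not overlap, with a median log2 fold change of 0.57, and of 32 small-subunit genes 31 did not overlap, with a median of 0.60. All 3 genes of the ribosomal stalk, the arm of the large subunit that recruits elongation factors, were higher in every estrus library. Rps21, a small-subunit protein, had the smallest p of the group. It was at 504, 430 and 416 FPKM in estrus and at 281, 248 and 251 FPKM in diestrus. Its log2 fold change was 0.79 ± 0.14 (SE), with an unadjusted p of 0.000685 and a limma adjusted p of 0.791.

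Rps24, another abundant small-subunit gene, was at 1230, 1024 and 1094 FPKM in estrus and at 731, 800 and 688 FPKM in diestrus. Rplp1, a stalk protein, was at 1650, 1201 and 1184 FPKM against 934, 804 and 901 FPKM. Rpl41, the most abundant gene of the group, was at 1942, 1407 and 1315 FPKM against 1103, 959 and 1179 FPKM. In each of these 3 genes the estrus libraries were all above the diestrus libraries, and estrus replicate 1 was the highest. The largest log2 fold change, 1.09, was that of Rps6, the subunit protein phosphorylated by S6 kinase. Its values were low for the group, at 26.7, 14.5 and 12.8 FPKM against 5.65, 11.3 and 6.55 FPKM. Many ribosomal protein genes have near-identical copies elsewhere in the genome, so their reads may have been split between copies, and levels of single members are uncertain.

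The 5 tested members whose phases overlapped were Rpl29, Rpl36, Rpl7l1, Rpl22l1 and Rps27l, named here after their values were seen. The last 3 are paralogs of core ribosomal proteins. Rpl7l1 was at 28.1, 40.4 and 30.4 FPKM in estrus and at 36.1, 36.0 and 31.1 FPKM in diestrus, and was the only tested member with a negative log2 fold change (-0.07). Rps27l was at 75.2, 92.4 and 90.5 FPKM against 81.7, 72.3 and 75.7 FPKM. In Rpl36 and Rpl29 diestrus replicate 3 reached above the lowest estrus value. The 4 members under the filter were Rpl10l, Rpl3l, Rpl39l and Rpl32l.

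**Figure D2:**
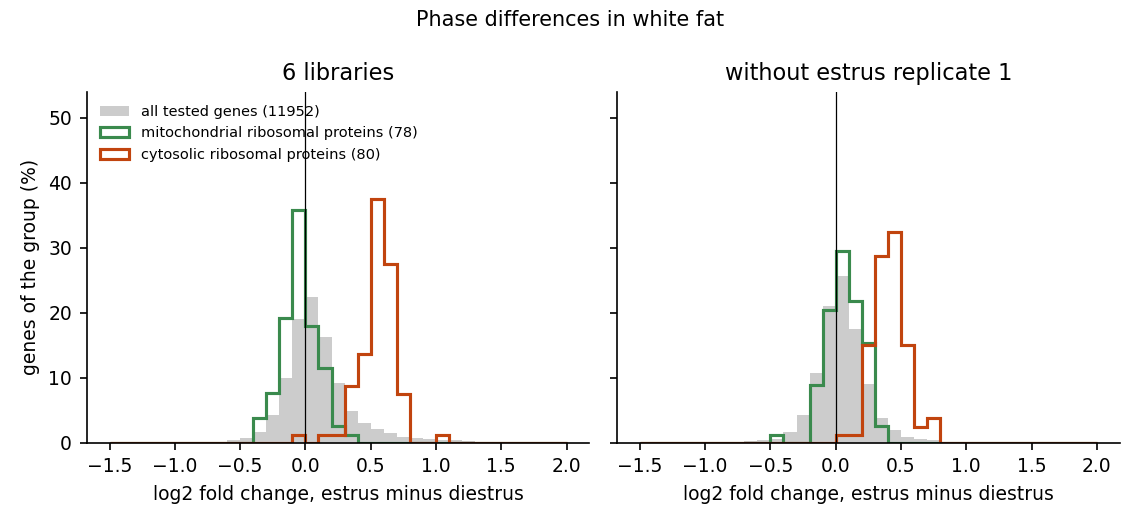
Distribution of the log2 fold change of the phases, as a percentage of each group, for 80 cytosolic ribosomal protein genes, 78 mitochondrial ribosomal protein genes and all 11952 tested genes, with all 6 libraries and without estrus replicate 1. Values beyond the axis are put in the outermost bins. The cytosolic genes form a narrow peak to the right of all genes in both panels (medians 0.58 and 0.41), and the mitochondrial genes lie around 0.

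Neighbouring parts of the translation machinery were set beside this group, in 3 lists made after its values had been seen. Of 22 translation factors and other genes whose mRNAs are known for a pyrimidine start, 11 did not overlap, all higher in estrus. Over all tested genes 9.25% were higher in this way. The median log2 fold change of the 22 genes was 0.39 (0.26 without estrus replicate 1). Tpt1, a growth-related protein with such an mRNA, was at 1871, 1367 and 1488 FPKM in estrus and at 1059, 1073 and 1025 FPKM in diestrus. Eef1b2, a subunit of the factor that reloads the elongation factor eEF1A, was at 120, 83.4 and 89.7 FPKM against 58.0, 64.1 and 59.1 FPKM. Eef1a1, that elongation factor, overlapped narrowly, at 3374, 2087 and 2429 FPKM against 1925, 1987 and 2116 FPKM.

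The ribosomes of mitochondria have proteins of their own. Of 78 mitochondrial ribosomal protein genes 3 were higher and 1 lower without overlap, against 9.25% and 2.74% of all tested genes. The median was -0.03. Without estrus replicate 1 it was 18 higher and 1 lower, where 13.7% of all tested genes were higher, with a median of 0.06. Among 22 genes of ribosome biogenesis 0 were higher and 2 were lower without overlap, with a median of -0.07. Bop1, needed for processing of the large-subunit RNA, was at 12.8, 13.4 and 12.3 FPKM in estrus and at 16.3, 14.4 and 17.7 FPKM in diestrus. Fbl, the nucleolar methyltransferase fibrillarin, was at 29.1, 32.7 and 29.7 FPKM against 32.2, 31.5 and 33.7 FPKM and overlapped.

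Ribosomal protein mRNAs are short, so the difference was compared with transcript length. Tested genes other than ribosomal proteins were cut into 5 classes by the median length of their annotated transcripts. The median log2 fold change was 0.05 in the shortest class (299 to 756 bases, 2351 genes) and 0.06 in the longest class (2704 bases or more), while ribosomal protein genes, with a median length of 630 bases, had 0.58. Without estrus replicate 1 the medians were 0.05 in the shortest and 0.02 in the longest class, and 16.1% and 8.99% of their genes were higher in every remaining estrus library, while it was 76 of the 80 ribosomal protein genes. Markers of other cell types moved with the group. Estrus replicate 1, which had the highest ribosomal sum, also had the highest sums of smooth muscle, fibroblast and macrophage markers. The smooth muscle and fibroblast sums put every library in the same order as the ribosomal sum. The macrophage sums differed from it only in the order of diestrus replicates 1 and 2. Fibroblast sums were 2246, 691 and 1106 FPKM in estrus and 567, 510 and 587 FPKM in diestrus. The part of cell composition in the result was not tested.

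The start sites of the genes are shown because the pyrimidine stretch is the feature their mRNAs are known for. RefSeq starts (GRCm38.p6) were matched for 60 of the 80 tested genes. A stretch of a C and at least 5 further bases that are each C or T, beginning within 5 bases of the start on the strand of the gene, was found in 26 of these 60 (43.3%) and in 13.02% of the 9508 tested genes with a start. The 6 most abundant genes with such a stretch and without overlap of the phases are printed from 15 bases before the start to the 15th base of the transcript, with the stretch in capitals. Rps24 is from chr14:24490663-24490692 (+), Rplp2 from chr7:141447636-141447665 (+), Rps2 from chr17:24720048-24720077 (+), Rpl35 from chr2:39005117-39005146 (-), Rps27 from chr3:90213634-90213663 (-) and Rpl28 from chr7:4792950-4792979 (+).
Rps24: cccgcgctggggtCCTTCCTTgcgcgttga
Rplp2: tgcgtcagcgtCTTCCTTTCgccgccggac
Rps2: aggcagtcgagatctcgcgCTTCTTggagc
Rpl35: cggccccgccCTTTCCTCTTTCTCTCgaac
Rps27: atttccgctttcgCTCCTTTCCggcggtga
Rpl28: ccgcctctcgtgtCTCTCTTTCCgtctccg

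Genes with and without the stretch lay close to each other. Ribosomal protein genes with it had a median log2 fold change of 0.58 and those without it 0.57. Among the other tested genes the medians were 0.08 for 1212 genes with the stretch and 0.05 for 8236 genes without it, and 9.16% and 8.51% of them were higher in every estrus library. Annotated starts can lie some bases away from the true ones, so genes without a match may still carry the stretch.

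In brown fat, the heat-producing fat, the phases stood in the opposite order. In its libraries the ribosomal protein genes summed to 28537 and 27488 FPKM in estrus replicates 1 and 2, and to 40600, 36197 and 39908 FPKM in diestrus. Estrus replicate 3 of brown fat, with 29061 FPKM, was far shallower than the rest (12048 genes at 0) and was left out. Of 82 ribosomal protein genes that passed the filter, 75 were lower in both remaining estrus libraries than in any diestrus library and 1 was higher. Over all brown fat genes, 26.5% were lower and 22.9% higher in this way. The median log2 fold change of the 82 genes was -0.46.

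The difference between the fat tissues was tested with an interaction term in limma over 6 white and 5 brown fat libraries, first taking all libraries as independent. Of 11830 genes 64 (0.541%) passed an adjusted p of 0.05, and 19 of the 82 ribosomal protein genes were among them, all with the larger value in white fat. The median difference of the phase differences was 1.01 over the 82 genes, and 0.10 over all genes. Rps21 was at 231 and 224 FPKM in brown fat estrus and at 406, 327 and 407 FPKM in brown fat diestrus. Its log2 fold change in white fat was 1.52 above that in brown fat, with an adjusted p of 0.0410. Rps14, also of the small subunit, was at 684, 525 and 549 FPKM in white fat estrus and at 372, 349 and 332 FPKM in diestrus. In brown fat it was at 384 and 388 FPKM against 674, 607 and 688 FPKM, and the difference of its differences was 1.49 (adjusted p 0.0410).

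The number of genes passing this test depended on the libraries and the fit. With all 12 libraries 12 genes passed, of which 8 were ribosomal protein genes, and without white fat estrus replicate 1 it was 213 genes, of which 50 were ribosomal protein genes. All of these ribosomal protein genes had the larger value in white fat. With the replicate number within each tissue as a block, 6 genes passed and 0 of them were ribosomal protein genes, whose median difference was then 0.99. In brown fat, transcript length moved with the phase difference, with medians of -0.09 in the shortest and 0.06 in the longest class of other genes, and its part in the brown fat result was not tested. The tissues came from the same mice according to the study. With white and brown fat libraries of the same phase and number taken as 1 mouse, a fit added after the other results were seen, 0 of 11830 genes passed in limma, the lowest adjusted p was 0.244, and 1928 genes had an unadjusted p under 0.05. Of the 82 ribosomal protein genes 80 were then above 0, with a median difference of 1.04. This fit and the replicate block estimate more terms from the same libraries, which leaves less to estimate the spread from. The part of this in the lower counts was not tested. The labels do not say that equal numbers mark 1 mouse. The adjusted calls of the first fit hold only if the libraries are independent, which tissues of the same mice may not be.

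**Figure D3:**
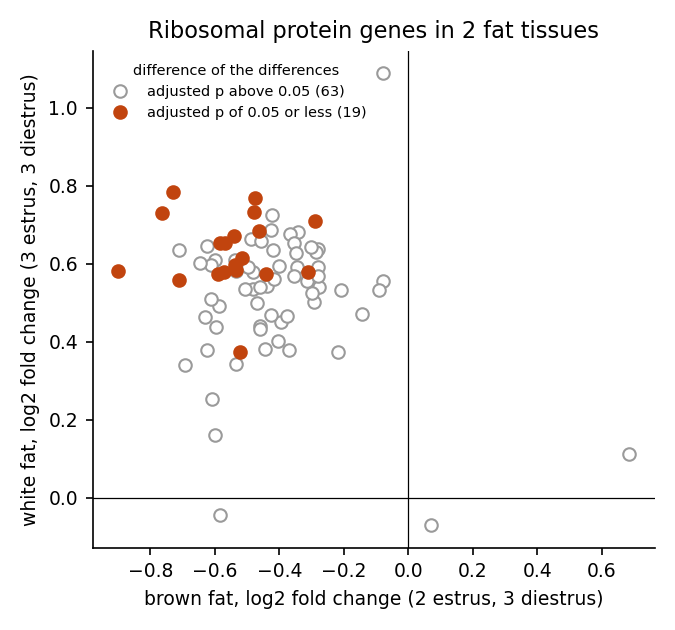
Log2 fold change of the phases for 82 ribosomal protein genes in brown fat (horizontal) and white fat (vertical), where filled points are the 19 genes with an adjusted p of 0.05 or less for the difference between the tissues when libraries are taken as independent. Most genes lie at the upper left, above 0 in white fat and below 0 in brown fat.

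Over the 13 other tissues the median log2 fold change of ribosomal protein genes ranged from -0.61 to 0.42. In the duodenum, with the lowest median, 15 of 82 genes were lower without overlap, against 22.1% of all genes there, and in the stomach, with the highest, 0 of 80 genes were without overlap. In the hypothalamus 69 of 80 genes were higher in every estrus library, against 9.96% of all genes there, with a median of 0.18. In the kidney it was 31 of 80 genes, against 4.25% of all genes, with a median of 0.15.

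Genes of the adipocyte itself differed little between the phases. Of 20 white adipocyte markers 18 had a log2 fold change below 0, with a median of -0.16 (-0.07 without estrus replicate 1). Of all 11952 tested genes 4388 were below 0, and their median was 0.06 (0.04 without that library). Only Pparg was lower without overlap, where 2.74% of all tested genes were, and none of the markers was higher. Pparg, the nuclear receptor that directs adipocyte differentiation, was at 162, 237 and 208 FPKM in estrus and at 252, 240 and 263 FPKM in diestrus. The marker sum was lowest in estrus replicate 1, at 51690 FPKM, and between 65774 and 77786 FPKM in the other 5 libraries. Lep, which encodes leptin, was at 104, 127 and 168 FPKM in estrus and at 211, 147 and 181 FPKM in diestrus, with overlap. Adipoq was at 2403, 2748 and 3382 FPKM against 2792, 2299 and 2870 FPKM, also with overlap.

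Several genes of triglyceride handling and of insulin signalling were lower in every estrus library. Gpam, the mitochondrial acyltransferase that starts triglyceride synthesis, was at 76.2, 143 and 119 FPKM in estrus and at 190, 174 and 197 FPKM in diestrus. The log2 fold change was -0.77 ± 0.23 (SE), and -0.51 without estrus replicate 1. Abhd5, the coactivator of adipose triglyceride lipase, was at 49.3, 78.1 and 74.9 FPKM against 98.8, 95.6 and 106 FPKM, a log2 fold change of -0.59. Neither gene overlapped between the phases.

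Pik3r1, the regulatory subunit of the PI3-kinase that relays the insulin signal, was at 40.7, 61.0 and 53.4 FPKM in estrus and at 89.7, 85.6 and 79.9 FPKM in diestrus. Its log2 fold change was -0.73 ± 0.16 (SE), with an unadjusted limma p of 0.00249, and it was -0.57 without estrus replicate 1. Insr, the insulin receptor, differed far less, at 14.5, 16.4 and 16.2 FPKM against 17.9, 17.7 and 16.7 FPKM. Of the 20 genes of the insulin list 4 did not overlap, all lower in estrus, against 2.74% of all tested genes, and Gys1, a glycogen synthase, was also among them. The median of that list was -0.13.

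The lipid pathways as whole lists overlapped widely. Of 29 genes of fatty acid uptake, triglyceride synthesis and lipid droplets, 1 was higher and 2 were lower without overlap, with a median of -0.15. Of 30 genes of lipolysis and fatty acid oxidation 0 were higher and 2 were lower, with a median of -0.09. Over all tested genes 9.25% were higher and 2.74% lower in this way. Without estrus replicate 1 the medians of these lists were -0.07 and 0.11. The lipolysis and oxidation list then had 6 genes higher and 2 lower, against 13.7% and 5.45% of all tested genes. Of 21 genes of fatty acid synthesis none was without overlap, and of 23 tested genes of cholesterol synthesis none, with medians of -0.22 for each list (-0.01 and -0.05 without estrus replicate 1). Within diestrus the synthesis genes varied strongly. Acly, which makes acetyl-CoA for fatty acid synthesis, was at 368, 750 and 773 FPKM in estrus and at 839, 1297 and 234 FPKM in diestrus, so the highest and the lowest of the 6 libraries were both from diestrus.

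Thermogenic genes also varied strongly between mice of the same phase. Ucp1, the uncoupling protein of heat-producing fat, was at 0.66, 32.8 and 11.4 FPKM in estrus and at 4.61, 3.40 and 0.92 FPKM in diestrus. Cidea, a lipid droplet protein of brown-like adipocytes, was at 2.97, 62.7 and 51.0 FPKM against 24.4, 33.3 and 11.8 FPKM. In both genes estrus replicate 1 was the lowest library and estrus replicate 2 the highest. The median of the 13 tested genes of the list was 0.04 with all libraries and 0.33 without estrus replicate 1, and it was slightly below 0 under each of the 3 rescalings. With all libraries 0 of the 13 were without overlap. Without estrus replicate 1, 7 were higher and 0 lower, against 13.7% and 5.45% of all tested genes. For 76 nuclear genes of oxidative phosphorylation the median was -0.05, and 0.13 without that library. Of these genes 1 was higher and 0 lower without overlap, and 21 and 0 without that library.

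**Figure D4:**
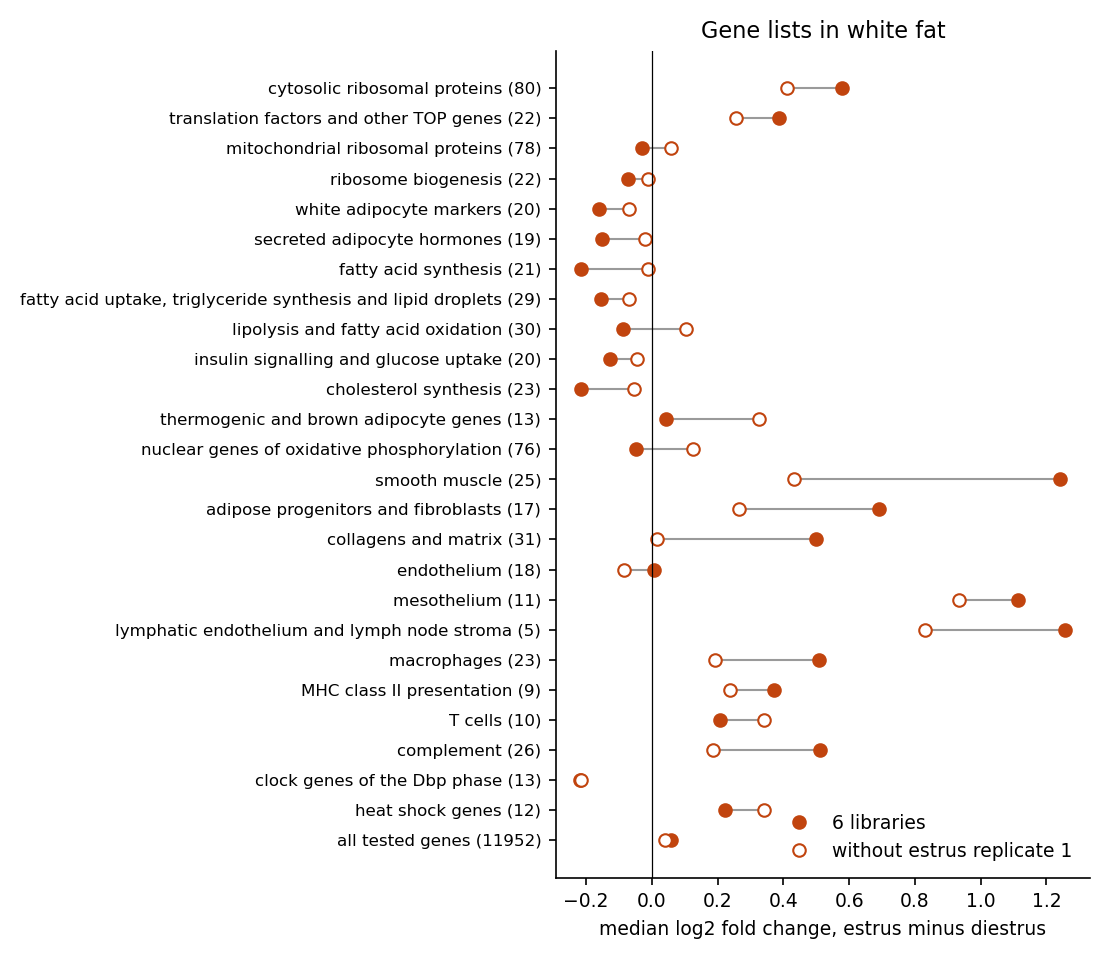
Median log2 fold change of gene lists in white fat, with the number of tested genes in brackets, for all 6 libraries (filled) and without estrus replicate 1 (open). Ribosomal protein genes keep most of their difference without that library. The medians of smooth muscle, fibroblast, matrix, macrophage and complement lists start from other levels and move far towards 0. Smooth muscle then lies at 0.43, about level with ribosomal protein genes at 0.41. The fibroblast (0.26), macrophage (0.19), complement (0.19) and matrix (0.02) lists lie lower.

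Markers of the supporting cells were higher in estrus, in large part through estrus replicate 1. Of 25 tested smooth muscle genes 12 did not overlap, all higher in estrus, against 9.25% of all tested genes. Their list median was 1.24, which became 0.43 without that library. Tagln, an actin-binding protein of smooth muscle, was at 1185, 94.5 and 119 FPKM in estrus and at 49, 38.0 and 57.9 FPKM in diestrus. Acta2, smooth muscle actin, was at 685, 66.5 and 77.9 FPKM against 37.2, 32.4 and 52.3 FPKM. In both genes replicates 2 and 3 of estrus were also above all diestrus libraries, but by much less than replicate 1. Endothelial markers did not follow, with 1 of 18 higher and 1 lower without overlap and a median of 0.01. Over all tested genes 9.25% were higher and 2.74% lower.

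Progenitor and fibroblast genes gave the same picture. Of 17 tested genes 6 were higher without overlap and 0 lower, against 9.25% and 2.74% of all tested genes. Without estrus replicate 1 it was again 6 and 0, against 13.7% and 5.45%. The list median was 0.69, or 0.26 without that library. Dcn, the matrix proteoglycan decorin, was at 1145, 358 and 636 FPKM in estrus and at 268, 248 and 229 FPKM in diestrus. The log2 fold change of Dcn was 1.36, and 0.94 without estrus replicate 1. Lum, the related proteoglycan lumican, was at 318, 52.8 and 87.5 FPKM against 33.3, 30.8 and 36.3 FPKM. For these proteoglycans every estrus mouse was above every diestrus mouse.

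For collagens and other matrix genes, the median of 0.50 over 31 genes became 0.02 without that library, and Col3a1 was at 402, 96.0 and 114 FPKM in estrus against 125, 90.2 and 130 FPKM in diestrus. Of the 31 genes 2 were higher and 0 lower without overlap, against 9.25% and 2.74% of all tested genes. Mmp14, a membrane-bound matrix protease, did not overlap, at 88.5, 15.3 and 25.8 FPKM against 12.9, 8.67 and 11.3 FPKM. Mesothelial markers were high in estrus replicates 1 and 3 and low in replicate 2, with Upk3b at 15.6, 2.28 and 21.0 FPKM in estrus and at 0.68, 2.47 and 6.92 FPKM in diestrus. Wt1, a transcription factor of mesothelium and visceral progenitors, did not overlap, at 17.7, 2.95 and 6.98 FPKM against 0.99, 2.27 and 2.19 FPKM. It was the 1 of 11 tested mesothelial markers without overlap, no larger a share than the 9.25% of all tested genes.

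In the macrophage list, Retnla had the largest difference of the genes without overlap. It is a secreted protein of alternatively activated macrophages that white fat also produces. Its values were 416, 223 and 330 FPKM in estrus and 83.7, 138 and 148 FPKM in diestrus, without overlap. Its log2 fold change was 1.38, and 1.17 without estrus replicate 1. In all, 6 of 23 tested macrophage genes were higher without overlap and 0 lower, against 9.25% and 2.74% of all tested genes, with a median of 0.51, or 0.19 without that library. Adgre1, the macrophage marker F4/80, overlapped, at 12.6, 3.63 and 5.68 FPKM against 5.03, 3.43 and 4.09 FPKM.

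Genes that present antigen on MHC class II were modestly higher, with a median of 0.37 (0.24 without estrus replicate 1). Without overlap 4 of 9 were higher and 0 lower, against 9.25% and 2.74% of all tested genes. H2-DMb1, which loads peptides onto class II molecules, was at 27.4, 25.6 and 18.2 FPKM in estrus and at 15.9, 14.2 and 15.8 FPKM in diestrus. Of 26 tested complement genes 2, Cfp and Clu, were higher in every estrus library, which is no larger a share than the 9.25% of all tested genes. Clu, the chaperone clusterin, was at 91.7, 31.0 and 54.5 FPKM against 25.8, 19.7 and 29.6 FPKM. Haemoglobin genes marked blood in single libraries, with Hba-a1 at 5905 FPKM in estrus replicate 3 and between 357 and 1348 FPKM in the others.

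Receptors of steroid hormones and of prolactin were nearly level. Esr1 was at 26.6, 15.1 and 18.0 FPKM in estrus and at 17.0, 16.6 and 17.7 FPKM in diestrus, a log2 fold change of 0.17 that became -0.05 without estrus replicate 1. Nr3c1, the glucocorticoid receptor, was at 29.7, 34.4 and 30.7 FPKM against 35.2, 28.8 and 27.3 FPKM. Prlr, the prolactin receptor, was at 3.91, 4.68 and 4.56 FPKM against 5.58, 5.03 and 2.90 FPKM. All 3 overlapped between the phases.

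Pgr and Esr2, the progesterone receptor and the other estrogen receptor, were under the filter. Pgr was at 1.70, 0.61 and 0.38 FPKM in estrus and at 0.18, 0.42 and 0.22 FPKM in diestrus, and Esr2 was at most 0.22 FPKM in any library. Oxtr, the receptor of oxytocin, was the most abundant of 6 tested genes listed for uterine muscle and stroma. The other 5 had log2 fold changes above 0, and the list median was 0.60 (0.12 without estrus replicate 1). Oxtr was at 41.8, 86.0 and 27.6 FPKM in estrus and at 68.6, 136 and 184 FPKM in diestrus, with overlap. Its log2 fold change was -1.35, and -1.28 without estrus replicate 1, with an unadjusted limma p of 0.0236.

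Among 28 genes listed as estrogen-responsive, 17 were tested and only Igfbp3, a carrier of insulin-like growth factors, was without overlap. It was at 135, 27.6 and 35.3 FPKM in estrus and at 18.4, 17.2 and 9.45 FPKM in diestrus. The list median was 0.11, and -0.01 without estrus replicate 1. Among 14 tested progesterone-responsive genes Edn1 and Lifr were higher and Per1 was lower in every estrus library, shares near those of all tested genes (9.25% and 2.74%), and the list median was 0.18. Per1, a clock gene that steroid receptors also drive, was at 29.2, 18.0 and 32.6 FPKM against 33.3, 34.9 and 47.4 FPKM. The 13 clock genes of the Dbp phase, a group that peaks together once a day, had a median of -0.22 with and -0.21 without that library, and Per1 alone did not overlap.

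The 24 leading genes were taken from those without overlap whose log2 fold change kept its sign and at least 50% of its size without estrus replicate 1, the 12 largest in each direction. The genes higher in estrus were led by Pcp4, a calmodulin-binding protein of neurons and smooth muscle. It was at 402, 31.7 and 26.1 FPKM in estrus and at 5.10, 6.31 and 7.58 FPKM in diestrus, a log2 fold change of 3.29, or 2.03 without estrus replicate 1. Penk, the precursor of the enkephalin peptides, was at 75.9, 15.0 and 32.4 FPKM against 9.23, 10.3 and 6.18 FPKM. C1qtnf3, a secreted adipokine of the C1q family, was at 26.2, 3.58 and 6.34 FPKM against 0.61, 0.70 and 0.53 FPKM.

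Ptn and Mdk, which encode the related heparin-binding factors pleiotrophin and midkine, had log2 fold changes of 1.93 and 1.85 (1.10 and 1.24 without estrus replicate 1). Mdk was at 32.5, 5.73 and 12.1 FPKM in estrus and at 3.56, 2.17 and 3.40 FPKM in diestrus. Rspo3, an enhancer of Wnt signalling, was at 20, 1.02 and 4.30 FPKM against 0.33, 0.44 and 0.23 FPKM. The remaining leading genes of this direction were Ctxn1, Pdlim3, Pamr1, Fxyd6 and a pair listed as Gm13304 and Gm10591. In all 12 estrus replicate 1 was the highest library.

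Ccl21a, a chemokine of lymphatic vessels, had the largest log2 fold change of all tested genes at 3.29 but overlapped, at 222, 11.4 and 54.9 FPKM in estrus against 13.4, 1.10 and 4.51 FPKM in diestrus. Gm13304 and Gm10591, whose synonyms name them as copies of Ccl21, had identical values in every library, so their reads could not be told apart. Their values were 19.4, 6.62 and 9.96 FPKM in estrus, 3.90 FPKM in diestrus replicate 1 and 0 in the other diestrus libraries.

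**Figure D5:**
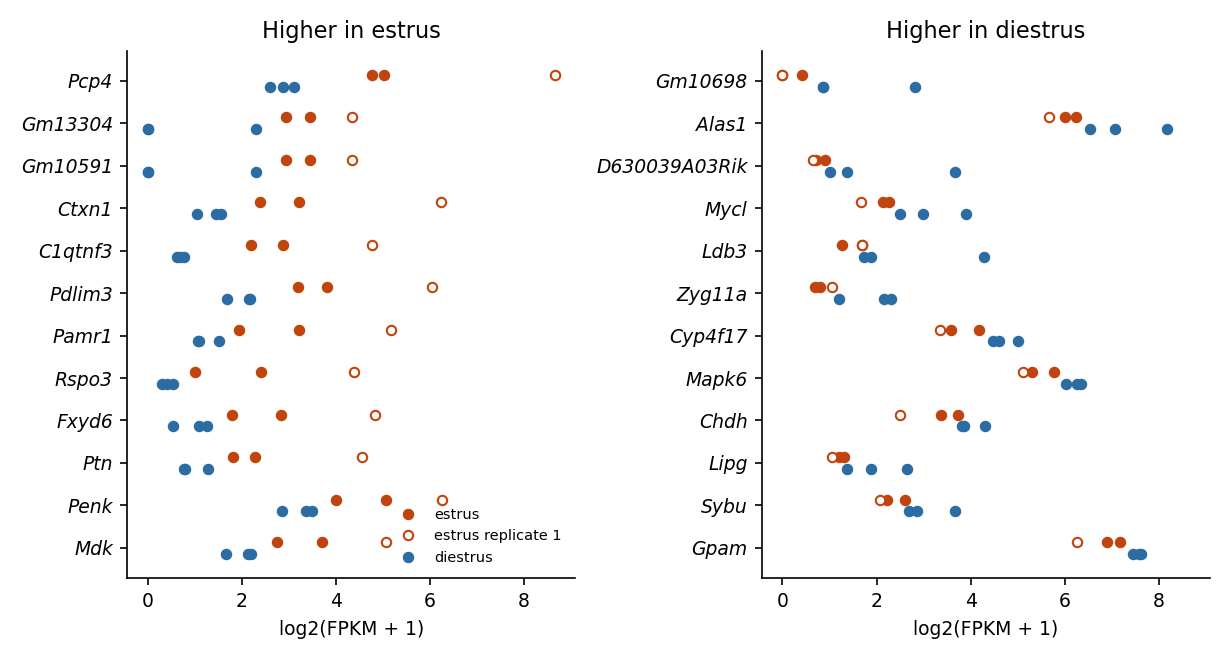
log2(FPKM + 1) of the 24 leading genes in each white fat library, with estrus in orange, estrus replicate 1 as open points and diestrus in blue. On the left estrus replicate 1 lies far above the other estrus libraries, and on the right diestrus replicate 3 is the highest library for most genes.

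The genes with the smallest p had smaller differences and less spread. Eaf2, a factor of transcription elongation, was at 9.86, 8.07 and 7.87 FPKM in estrus and at 3.63, 4.60 and 4.56 FPKM in diestrus, with an unadjusted limma p of 0.000393. Ccl27a, a chemokine that attracts T cells to the skin, was at 16.9, 14.1 and 19.2 FPKM against 9.63, 10.1 and 8.94 FPKM. The smallest p of all, 0.000207, was that of Gapdh-ps15, a pseudogene of Gapdh whose reads cannot be separated with certainty from its parent gene. LOC100862456 was also among the 5 smallest for higher genes, tied with LOC102641086, which had identical values. For all of these the limma adjusted p was 0.791.

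In the other direction, Alas1, the rate-limiting enzyme of haem synthesis, was at 50.2, 63.4 and 74.9 FPKM in estrus and at 91.6, 133 and 289 FPKM in diestrus, a log2 fold change of -1.28, or -1.13 without estrus replicate 1. Mapk6, the atypical kinase ERK3, was at 33.8, 53.5 and 38.4 FPKM against 64.2, 76.2 and 80.8 FPKM. Cyp4f17, a cytochrome P450, was at 9.26, 17.1 and 11.1 FPKM against 23.5, 21.4 and 31.1 FPKM. Estrus and diestrus did not overlap in any of them.

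Mycl, a transcription factor of the Myc family, was at 2.19, 3.83 and 3.40 FPKM in estrus and at 6.93, 4.65 and 14.0 FPKM in diestrus. Chdh, the mitochondrial choline dehydrogenase, had a log2 fold change of -0.80, which became -0.44 without estrus replicate 1. Lipg, the endothelial lipase, was at 1.08, 1.30 and 1.48 FPKM against 1.60, 5.30 and 2.70 FPKM. Gm10698, D630039A03Rik, Ldb3, Zyg11a, Sybu and Gpam completed the 12.

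Some of these genes rested on diestrus replicate 3. Ldb3, a protein of muscle Z-discs, was at 2.34, 2.68 and 18.6 FPKM in diestrus and at 2.21, 2.24 and 1.42 FPKM in estrus. The smallest p values for lower genes were those of Sntb1, Rnd3, Trit1, Pik3r1 and Mapk6. Sntb1, a syntrophin of the dystrophin complex, was at 18.3, 22.1 and 20.1 FPKM in estrus and at 34.2, 30.1 and 30.6 FPKM in diestrus. Rnd3 was at 11.1, 10.3 and 10.2 FPKM against 17.3, 15.4 and 21.2 FPKM. In both genes all estrus libraries lay below all diestrus libraries, and leaving out estrus replicate 1 left log2 fold changes of -0.56 and -0.74.

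By size alone, the largest lower values belonged to genes of low level. Slc15a2, a peptide transporter, was at 0.44, 0.29 and 3.20 FPKM in estrus and at 6.10, 6.88 and 3.00 FPKM in diestrus, with overlap. Mmd2, H3c14 and Ngfr overlapped as well, with log2 fold changes of -1.86, -1.58 and -1.48. H3c14, a histone gene, was listed at 0 in 4 of the 6 libraries.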

How the data were processed

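RNA of 6 white fat libraries was compared between the phases, and 5 brown fat libraries served for the interaction test, with shallow brown fat estrus replicate 3 left out. According to the study's text the authors extracted RNA with Trizol, sequenced it on the BGISEQ-500, filtered reads with SOAPnuke, aligned them with Bowtie2 2.2.5 to GRCm38.p5 and estimated abundance with RSEM 1.2.8 (versions from the submitters' processing notes). They deposited FPKM for each library. Reads per library were approximated from the steps of FPKM in 835 short genes at 12.96 to 19.4 × 1e6. This is no count, and the depth behind single values is unknown. The number of columns of other samples was 0.

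Here, log2(FPKM + 1) of genes with a mean FPKM of at least 1 was fitted with limma (version 3.58.1, R 4.3.3; trend on intensity), and p-values were adjusted by Benjamini-Hochberg over all tested genes. Summaries and plots used pandas 2.3.3 and matplotlib 3.10.9. Replicates are 3 mice per phase according to the study's text. An exact permutation test of 3 against 3 cannot go below 0.1 and was not used. On simulated data with 200 changed genes of 11840, the phase test recovered 53.7% of changes of 1 and 91.0% of changes of 2 on the log2 scale. Recovery meant an adjusted p of at most 0.05 without the fold limit, and 8 unchanged genes also passed. Only well-expressed genes were changed, and the noise was drawn independently for each gene. A shift of a whole library, such as that of estrus replicate 1, was thus not simulated, and recovery in the real data is unknown.

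Genes were named where they were called, led those without overlap (12 a direction), were largest in size or smallest in p (5 a direction), were the 3 most abundant or up to 6 non-overlapping members of a reported list, or were steroid, prolactin or insulin receptors. Some genes that the rule takes are not reported here. Other genes named are members of these lists chosen after their values were seen. The lists and members were chosen with earlier results of these data known, and 3 lists of translation genes were added after their values were seen. Symbols and start sites were looked up by Entrez Gene identifier in RefSeq (GRCm38.p6), and transcript lengths came from the GENCODE transcripts. Alternatives covered the pseudocount, the filter, the scale, the fit, the replicate block and leaving out each library.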

Additional observations from a re-analysis of the deposited data

Results flagged for a closer look

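The phase difference differed between white and brown fat, by the test of the difference itself, for 64 genes, and 19 of these were ribosomal protein genes. These calls took the libraries as independent, and 0 genes passed with libraries of the same phase and number taken as 1 mouse. Among genes that the naming rule takes, the log2 fold change in white fat exceeded that in brown fat by 1.52 for Rps21, 1.49 for Rps14, 1.94 for Gapdh-ps15, 1.21 for Rpl36a, 1.195 for Fau, 1.56 for Ccl27a and 1.24 for Rps27, each with a limma adjusted p between 0.0410 and 0.0483. Fau encodes a ribosomal protein as part of a fusion. With 3 libraries per phase no library was tested as an outlier within its group.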

How the results depend on the processing

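The direction of the ribosomal protein genes as a group held under the 17 alternatives of the phase test, with 54 to 77 genes higher in every estrus library. No gene was called except in one fit of all 90 libraries, which called 26 (24 higher in estrus). Genes at an unadjusted p under 0.05, 714 in all, numbered 472 at a mean FPKM of 5 or more, 2360 with library weights, and 390 (without diestrus replicate 2) to 1495 (without estrus replicate 2) with 1 library left out, and 397 without diestrus replicate 3. Genes past 1 on the log2 scale, 215 in all, numbered 388 and 66 with pseudocounts of 0.1 and 5, 123 at a mean of 5 or more, and 71 (without estrus replicate 1) to 468 (without estrus replicate 2) with 1 library left out. Genes without overlap, 1434 in all, numbered 2256 to 3448 with 1 library left out, where fewer values must separate.

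Genes with a difference between white and brown fat, 64 in all, numbered 12 with all 12 libraries, 213 without white fat estrus replicate 1, 6 with the replicate block within tissue and 0 with the replicate block of mouse (chosen after seeing the data). The ribosomal protein genes among them, 19, numbered 8, 50, 0 and 0. The cause was not tested. Deviations of libraries with the same replicate number in estrus and diestrus correlated at r of 0.04, 0.24 and -0.08. For libraries of unlike number r ran from -0.36 to 0.30. The matched pairs did not stand out, so the numbers were not taken as pairs. With the replicate block the phase test gave 815 genes higher and 165 lower at an unadjusted p under 0.05, and the lowest adjusted p was 0.298.

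Of 703 values of 42 named genes under alternatives, 13 changed sign, all of receptors near 0. Prlr became -0.00798 with a pseudocount of 5, -0.0481 with upper quartile scaling, -0.0467 with TPM scaling, -0.156 with quantile normalization and -0.0270 with library weights, and ran from -0.230 to 0.148 with 1 library left out. Nr3c1 became -0.0001134 with upper quartile scaling and -0.0168 with library weights, and ran from -0.0151 to 0.164 with 1 library left out. Esr1 ran from -0.0485 (without estrus replicate 1) to 0.341 with 1 library left out. Whole reads could not be recovered from the FPKM, so the planned count test was not run. The depth behind single values is unknown, and 3 libraries per phase limit the precision.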
